A study of Mus musculus with 8 samples.

Results

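The genes described here are 40 genes of the secretory route between the endoplasmic reticulum (ER) and the Golgi, out of 35976 gene symbols in the RNA-seq count table. They were picked by function, as genes of the translocon, the COPII and COPI coats and the cargo receptors that collagens use, but with earlier results of the KO against WT comparison in these same libraries known. Their KO against WT values are therefore given as a description and support no claim of their own. All 40 were in the table and all 40 passed the filter on low counts, which kept 9943 genes. The cells were preadipocytes, which are stromal precursors of fat cells, sorted from inguinal white fat of male mice as PDGFRa+ and CD45-, CD31- and TER119-. The WT group had the genotype Tet3 f/f, with floxed and undeleted alleles of the 5-methylcytosine dioxygenase gene Tet3, and the KO group was labelled Pdgfra-Tet3 KO, a deletion targeted to Pdgfra-expressing cells. Both groups had eaten a high fat diet for 6 weeks before RNA-seq, with 3 libraries each, called WT 1 to 3 and KO 1 to 3. The sources used here give neither the age of the mice, nor the kind of Cre driver, nor whether a library came from 1 animal, so p-values measure the spread between libraries, which may be technical.

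A protein bound for secretion enters the ER through the Sec61 channel, has its signal peptide cut off by signal peptidase, and leaves in vesicles coated by COPII. Vesicles coated by COPI carry escaped ER proteins and the recycling cargo receptors back from the Golgi. Procollagens are too long for a standard COPII vesicle and need an enlarged carrier that is built with the help of TANGO1, the product of Mia3. Preadipocytes, like other fibroblast-like cells, secrete collagen through this route.

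The libraries held between 1831218 and 2374978 counts. Between 0.676% and 0.795% of the counts of a library fell on the 40 genes, and single members had from 17 to 1722 counts in a library. In 26 of the 40, every library held at least 100 counts. Tet3, the targeted gene, had 93, 127 and 104 counts in WT libraries 1 to 3 and 76, 87 and 79 in KO libraries 1 to 3, which did not overlap. Scaled to library size the Tet3 groups overlapped, with WT library 1 at 44.2 CPM and KO library 2 at 44.5 CPM, where CPM is read counts scaled by the TMM-adjusted size of the library. The log2 fold change of Tet3 was -0.24 ± 0.24 (SE) over the whole gene, so these counts do not check the deletion. Of the preadipocyte markers none was at 0, and their summed level was 76489 to 80350 CPM in WT and 77211 to 95334 CPM in KO. Col1a1, Col1a2, Col3a1 and Dcn made up most of that sum, with 61864 counts of Col1a1 in KO library 1. Single markers went both ways. Cd34 had 2683, 2997 and 2500 counts in WT libraries 1 to 3 and 3988, 3024 and 3480 in KO libraries 1 to 3. Lum had 3192, 3480 and 2909 in WT and 2292, 2134 and 1984 in KO. The macrophage markers Adgre1, Lyz2 and Ptprc and the mesothelial markers Msln and Upk3b were at 0 in every library. The other listed macrophage markers, Csf1r, Cd68, Mrc1 and Cd14, held at most 14 counts in a library. The other listed mesothelial markers, Krt19 and Lrrn4, held at most 11. Of the adipocyte markers, Plin1, Cidec, Lep and Retn were at 0 in every library. Fabp4, the most abundant of the 7 adipocyte markers, had 222, 319 and 340 counts in the WT libraries and 70, 241 and 145 in the KO libraries. All 7 summed to between 107 and 169 CPM in WT and between 36.4 and 124 CPM in KO, with KO library 2 above WT library 1, and their part in the results was not tested. Hemoglobin and other erythroid genes together reached 151 CPM in KO library 1 and at most 39.1 CPM in the other 5. Pdgfra, which gives both the sort marker and the name of the KO line, was counted 1401, 1558 and 1246 times in the WT libraries and 794, 943 and 840 times in the KO libraries. The 7 pericyte and smooth muscle markers, none at 0 in all libraries, summed to between 335 and 373 CPM in WT and between 184 and 192 CPM in KO. That gap came from Pdgfrb (586, 648 and 651 counts in WT, 334, 295 and 262 in KO) and Notch3 (127, 111 and 80, then 19, 44 and 32). Rgs5, Cspg4, Acta2, Myh11 and Kcnj8 held at most 25 counts in a library, and their groups overlapped. The part of these markers in the results was not tested. Endothelial markers summed to between 136 and 153 CPM in WT and between 139 and 173 CPM in KO. Tek, with 250 to 331 counts in a library, made up most of that sum. Kdr held 1 to 30 counts, and Pecam1, Cdh5, Emcn and Cldn5 at most 6. Skeletal muscle markers summed to between 14.0 and 77.9 CPM in WT and between 56.5 and 133 CPM in KO.

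No member passed the quasi-likelihood test of edgeR at an adjusted p of 0.05. That test called 357 of 9943 genes (3.59%), and among the members the lowest adjusted p was 0.109, for Tmed9. DESeq2 and limma-voom also called 0 of the 40. Fitted log2 fold changes (KO over WT) were below 0 for 31 members and above 0 for 9, where 50.3% of all tested genes were below 0. The median member stood at -0.23, which is a level 14.9% below WT, while the median of all tested genes was -0.0024. The values ran from -0.76 for Sec61b to 0.57 for Cope, with a median standard error of 0.18, and 31 of the 40 approximate 95% intervals included 0. The median depended on WT library 2, since without that library it was -0.14. Leaving out 1 library changed the sign or moved the value by over 1.5 times for 31 of the 40 members. The 9 for which it did not were Sec24a, Sec16a, Copa, Copb1, Copb2, Cope, Tmed9, Tmed10 and Lman1. WT library 2 held more than 1.5 times the mean of the other WT libraries for 5 members (Sec61b, Sec23a, Sec24b, Sec13 and Arcn1), a share of 12.5%, where 12.8% of all tested genes did so, and 7.27% of the tested genes whose mean level lay within the range of the members. In bulk RNA, fewer cells of a type and less RNA per cell cannot be told apart, and that holds for every level given here.

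**Figure D1:**
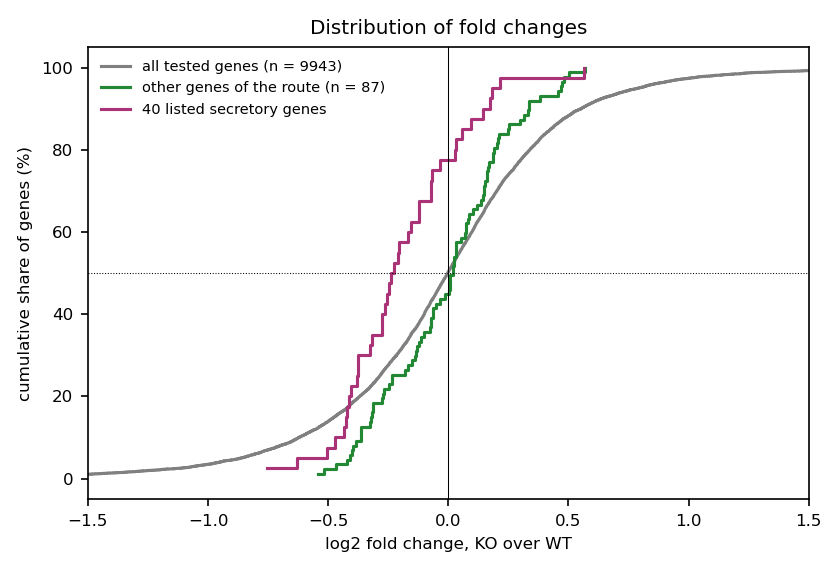
Cumulative share of genes in percent (vertical axis) against the KO over WT log2 fold change (horizontal axis) for all 9943 tested genes, the 87 tested other genes of the route and the 40 listed members. The line of the members crosses the median at -0.23 and the line of the other genes of the route crosses it at 0.02.

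At an unadjusted p under 0.05, edgeR put 8 members lower in KO, where 7.83% of all tested genes were so, and 1 member higher, where 7.62% were so. The 8 were Sec61b, Ssr2, Sec23a, Sec24a, Sec16a, Copa, Kdelr3 and Tmed9, and the member on the other side was Cope. Every KO library lay below every WT library for 9 members, against 10.3% of all tested genes. These were Sec61b, Ssr2, Sec24a, Sec24c, Sec16a, Copa, Copb2, Kdelr3 and Tmed9. Every KO library lay above every WT library for Cope and Surf4, against 10.1% of all tested genes. In the other 29 the groups overlapped. Because the members were chosen with this contrast known, nothing is read from these counts.

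**Figure D2:**
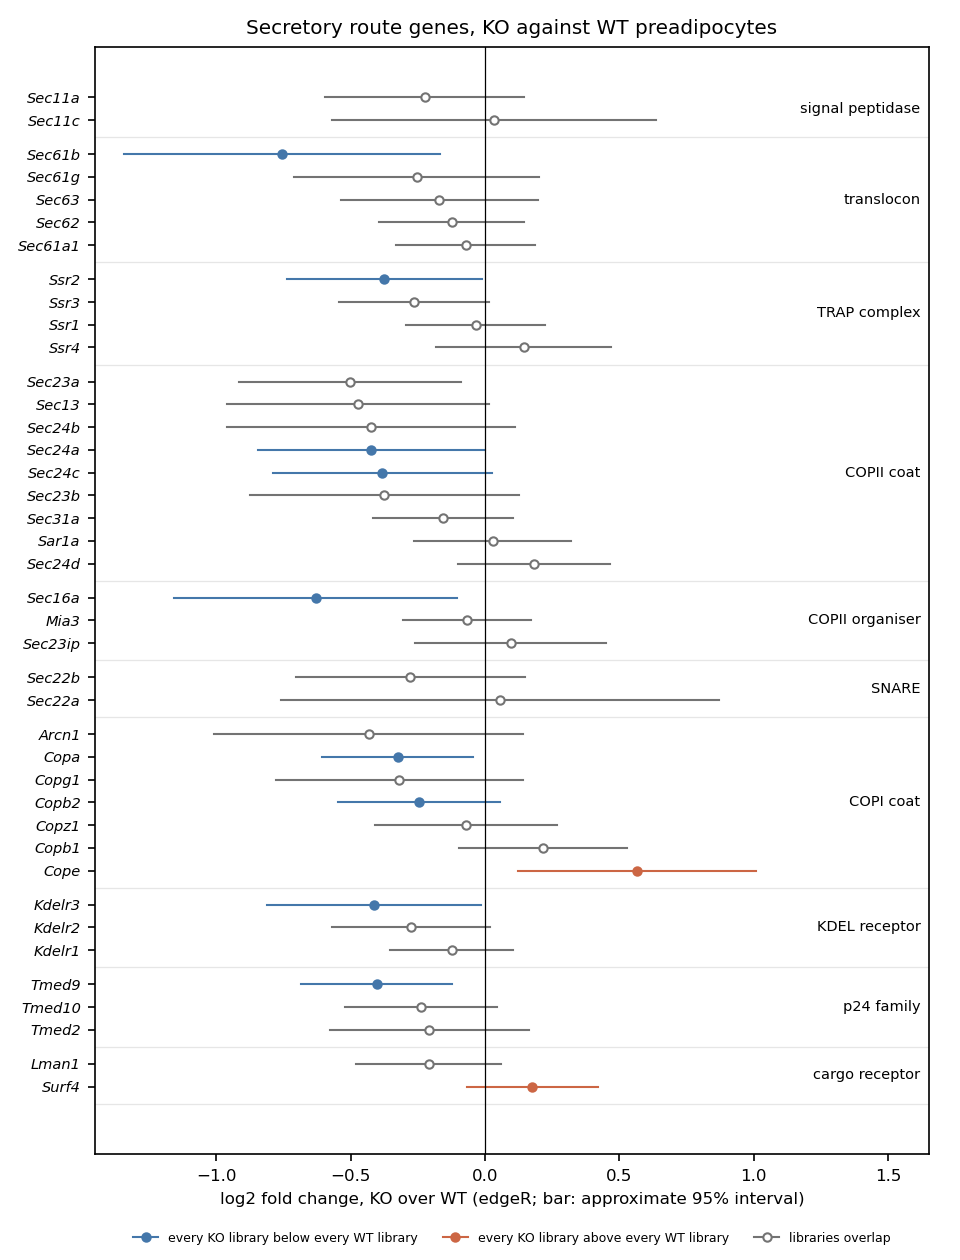
KO over WT log2 fold change (horizontal axis, points) with its approximate 95% interval (bars) for the 40 genes, grouped by role. Filled points mark the 11 genes whose WT and KO libraries did not overlap, 9 of them below WT and 2 above, and open points mark the 29 whose libraries overlapped.

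Promoter sequence was looked at because several roles lay on the same side of 0. RefSeq promoter windows (GRCm38.p6, from 250 bases before to 50 after a start) matched 33 of the 40 genes, in 35 windows. Of 10 motifs searched on both strands, TGACGTGG is the core of the unfolded protein response element, which ATF6 and XBP1 bind. It was in 5 of the 35 windows (14.3%) and in 0.676% of all 32851 windows. The 32851 windows were not limited to tested genes or matched to the members in base content, so the 2 shares are not like for like. The stretches below hold those 5 matches and, for Cope, the CRE letters TGACGTCA, which were in 2.86% of the members' windows and 1.79% of all windows. Each is written 5′ to 3′ on the strand of the gene, with the match in capitals, and CCACGTCA is TGACGTGG read on the other strand.
Sec23a, chr12:59011988-59012071, minus strand: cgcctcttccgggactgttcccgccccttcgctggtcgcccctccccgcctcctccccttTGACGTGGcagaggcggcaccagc
Sec24d, chr3:123267410-123267493, plus strand: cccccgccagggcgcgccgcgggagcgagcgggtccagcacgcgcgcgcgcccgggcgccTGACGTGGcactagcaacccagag
Kdelr3, chr15:79516318-79516401, plus strand: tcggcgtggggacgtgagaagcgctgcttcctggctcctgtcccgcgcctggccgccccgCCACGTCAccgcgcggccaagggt
Copb1, chr7:114254685-114254768, minus strand: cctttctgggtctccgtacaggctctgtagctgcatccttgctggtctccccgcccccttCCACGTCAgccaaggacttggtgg
Copb2, chr9:98563664-98563747, plus strand: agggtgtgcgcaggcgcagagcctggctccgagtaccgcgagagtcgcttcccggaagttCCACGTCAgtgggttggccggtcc
Cope, chr8:70302517-70302580, plus strand: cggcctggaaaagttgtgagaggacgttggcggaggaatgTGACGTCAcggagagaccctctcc

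The match lay from -28 to -21 of the start in Copb1, from -30 to -23 in Kdelr3, from -26 to -19 in Sec24d, from -7 to 1 in Copb2 and from 7 to 14 in Sec23a, with 1 as the first transcribed base. The 5 genes with TGACGTGG did not share a side. Their log2 fold changes were -0.50 for Sec23a, -0.41 for Kdelr3, -0.25 for Copb2, 0.18 for Sec24d and 0.22 for Copb1. The longer ER stress elements ERSE and ERSE-II were in 0 member windows and in 0.119% and 0.0365% of all windows. The GC box GGGCGG was in 71.4% of the members' windows and 35.7% of all, the CCAAT box CCAAT in 37.1% and 37.4%, and TATAAA in 2.86% and 13.6%. CCACG, part of TGACGTGG on the other strand and of both ER stress elements, was in 62.9% and 32.8%, CACGTGAC in 8.57% and 2.25%, and TTTAAG in 8.57% and 13.5%. Such matches describe letters in a window and are not evidence of binding.

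Some of the factors known to drive secretory genes, Xbp1, Creb3l1 and Creb3l2, are given too, and were named after their values were seen. No value is given for Atf6. Xbp1, whose spliced form activates secretory genes in mouse plasma cells, stood at 126, 145 and 140 CPM in WT 1 to 3 and at 104, 94.1 and 94.1 CPM in KO 1 to 3. Every KO library lay below every WT library, with a log2 fold change of -0.49 ± 0.16 (SE) that did not pass edgeR (adjusted p = 0.0995). Gene counts do not separate spliced from unspliced Xbp1. Creb3l1 and Creb3l2 encode membrane-bound relatives of ATF6, and CREB3L2 activates Sec23a in mouse cartilage cells. Creb3l1 stood at 180, 187 and 183 CPM in WT and 267, 177 and 173 CPM in KO, with KO library 1 above the rest. Creb3l2 overlapped as well, at 98.9, 97.8 and 127 CPM in WT and 102, 102 and 136 CPM in KO.

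Entry into the ER came first. Sec61a1, Sec61b and Sec61g encode the pore and both small subunits of the Sec61 channel, and Sec62 and Sec63 encode partners that help it open. Sec61b stood at 30.9, 60.1 and 43.2 CPM in WT 1 to 3 and at 28.7, 27.1 and 23.7 CPM in KO 1 to 3. The groups did not overlap, but WT library 1 lay close to the KO libraries and WT library 2 far above them. Its log2 fold change was -0.76 ± 0.29 (SE), the lowest of the 40, and -0.48 without WT library 2. Sec61a1, the pore, stood at 403, 370 and 440 CPM in WT and 350, 438 and 366 CPM in KO, and the groups overlapped (log2 fold change -0.07 ± 0.13). Sec61g, Sec62 and Sec63 overlapped too, at -0.25 ± 0.22, -0.12 ± 0.13 and -0.17 ± 0.18. All 5 translocon genes had a negative value, and their median was -0.17. The log2 ratio of Sec61b to Sec61a1 counts was -3.71, -2.62 and -3.35 in WT libraries 1 to 3 and -3.61, -4.01 and -3.95 in KO libraries 1 to 3. These groups overlapped, with KO library 1 above WT library 1, and the mean difference was -0.63, or -0.33 without WT library 2.

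Signal peptidase holds Sec11a or Sec11c as its catalytic subunit. Sec11a stood at 110, 86.8 and 115 CPM in WT 1 to 3 and at 90.8, 80.8 and 94.6 CPM in KO 1 to 3, a log2 fold change of -0.22 ± 0.18. Sec11c stood at 34.7, 35.6 and 26.8 CPM in WT and 45.2, 24.03 and 30.3 CPM in KO, at 0.03 ± 0.29. Both pairs of groups overlapped, and in Sec11c KO library 1 was the highest of all 6. The genes Ssr1 to Ssr4 encode the TRAP complex, which sits beside the channel and helps some signal peptides to insert. Ssr2 stood at 122, 133 and 114 CPM in WT and 102, 107 and 74.8 CPM in KO. The groups did not overlap, with KO library 3 the lowest, and the log2 fold change was -0.37 ± 0.18, or -0.23 without KO library 3. Ssr4 stood at 166, 152 and 133 CPM in WT and 193, 137 and 168 CPM in KO, overlapping at 0.14 ± 0.16. The log2 ratio of Ssr4 to Ssr2 counts was 0.45, 0.19 and 0.22 in WT libraries 1 to 3 and 0.92, 0.35 and 1.17 in KO libraries 1 to 3, with KO library 2 below WT library 1. Its mean difference was 0.53, or 0.35 without KO library 3. Ssr1 was at -0.04 ± 0.13. Ssr3 was at -0.26 ± 0.14, and it had its lowest level, 315 CPM, in KO library 1.

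The COPII coat is laid down by the GTPase SAR1, which recruits the inner layer of SEC23 and SEC24, around which SEC13 and SEC31 form the outer cage. Of the 9 coat genes 7 had a negative log2 fold change, with a median of -0.38. Sec23a stood at 96.0, 208 and 126 CPM in WT 1 to 3 and at 102, 99.2 and 103 CPM in KO 1 to 3. WT library 1 lay below all 3 KO libraries and WT library 2 lay above 200 CPM, so the groups overlapped. The log2 fold change of Sec23a was -0.50 ± 0.20, and without WT library 2 it was -0.13. Sec23b, the close relative of Sec23a, stood at 67.5, 43.2 and 80.9 CPM in WT and 47.7, 41.4 and 58.3 CPM in KO (-0.38 ± 0.24). Its value was -0.18 without WT library 3 and -0.60 without WT library 2. In Sec23b, WT library 2 was the lowest WT library, where in Sec23a it was the highest. The log2 ratio of Sec23a to Sec23b counts was 2.27 in WT library 2 and 0.51 and 0.63 in WT libraries 1 and 3, and 1.09, 1.26 and 0.82 in KO libraries 1 to 3, so the groups overlapped (KO minus WT -0.08, and 0.49 without WT library 2).

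SEC24 is the subunit of the COPII coat that binds cargo, and its 4 genes form the pairs Sec24a with Sec24b and Sec24c with Sec24d. Sec24a stood at 80.8, 72.4 and 76.5 CPM in WT 1 to 3 and at 54.9, 64.4 and 51.7 CPM in KO 1 to 3. The groups were apart, with a log2 fold change of -0.42 ± 0.21. Sec24b stood at 54.2, 95.7 and 65.5 CPM in WT and 75.4, 54.2 and 30.8 CPM in KO, overlapping widely at -0.42 ± 0.26. Sec24b stood at -0.16 without WT library 2, -0.15 without KO library 3 and -0.75 without KO library 1. Sec24c stood at 101, 108 and 102 CPM in WT and 83.1, 101 and 54.5 CPM in KO. KO library 2 nearly reached the WT libraries and KO library 3 lay far below them, and the log2 fold change was -0.38 ± 0.20. Without KO library 3 the value for Sec24c was -0.17. Sec24d, loss of which impairs collagen export in zebrafish, stood at 305, 224 and 307 CPM in WT and 308, 343 and 297 CPM in KO. It was the member of its family with a positive value, 0.18 ± 0.14, and its groups overlapped. Without WT library 2 the value of Sec24d was 0.04, and without KO library 2 it was 0.11.

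The balance within the SEC24 family was compared inside each library, where the scaling between libraries has no part. The log2 ratio of Sec24d counts to the summed counts of Sec24a, Sec24b and Sec24c was 0.37, -0.30 and 0.33 in WT libraries 1 to 3 and 0.53, 0.65 and 1.11 in KO libraries 1 to 3. Every KO library lay above every WT library, by 0.63 on average (0.13 ± 0.38 in WT and 0.76 ± 0.31 in KO, SD, n = 3). Without WT library 2 the difference was 0.41. Against Sec24c alone, the log2 ratio of Sec24d was 1.59, 1.05 and 1.59 in WT libraries and 1.89, 1.77 and 2.44 in KO libraries, higher by 0.62 on average. In all, 8 ratios between members were computed, chosen after the values were seen, and none carries a test.

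The rest of the COPII coat overlapped between groups. Sec13 was at -0.47 ± 0.24, with 94.0 CPM in WT library 2 and between 39.1 and 61.6 CPM in the other 5, and without WT library 2 its value was -0.20. Sec31a was at -0.16 ± 0.13 and Sar1a at 0.03 ± 0.14. Sec16a encodes the scaffold of ER exit sites, where COPII assembles. It stood at 49.5, 48.3 and 65.0 CPM in WT 1 to 3 and at 42.1, 36.8 and 25.9 CPM in KO 1 to 3. The groups did not overlap, and the log2 fold change of -0.63 ± 0.26 was the second lowest of the 40. Sec23ip, which encodes a SEC23-binding protein of exit sites, stood at 89.4, 125 and 121 CPM in WT and 131, 118 and 109 CPM in KO (0.10 ± 0.17).

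Mia3, whose product TANGO1 loads procollagen at exit sites, was among the members with the most counts. It stood at 582, 548 and 626 CPM in WT 1 to 3 and at 501, 588 and 588 CPM in KO 1 to 3. KO library 1 was the lowest and the other KO libraries lay among the WT libraries, with a log2 fold change of -0.07 ± 0.12 and an approximate 95% interval of -0.31 to 0.17. Sec22b encodes a SNARE, a protein that fuses vesicles with membranes, and its relative Sec22a was listed in the same role. Sec22a was the shallowest member, at 24.3, 22.0 and 13.9 CPM in WT and 8.72, 27.1 and 27.0 CPM in KO (0.06 ± 0.40), and the 17 counts of KO library 1 set the low end. Sec22b stood at 74.2, 67.7 and 95.3 CPM in WT and 54.9, 68.5 and 72.1 CPM in KO, overlapping at -0.28 ± 0.21.

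**Figure D3:**
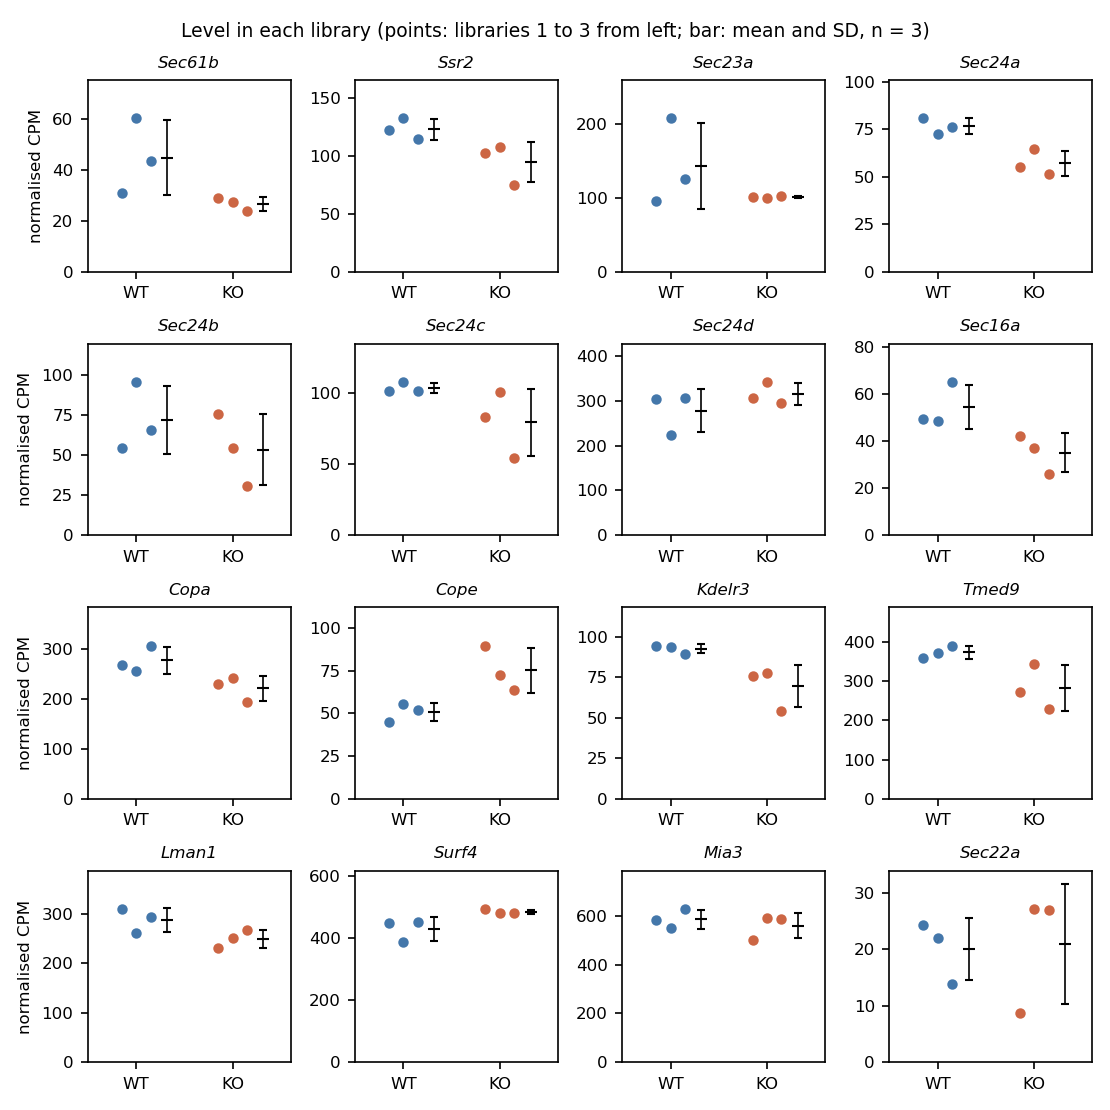
Normalised level in CPM (vertical axes, each from 0) of 16 members in the 3 WT and 3 KO libraries. Points are libraries 1 to 3 from left to right, and the bar is the mean with its SD. Sec61b and Sec23a show WT library 2 above the rest, at 60.1 and 208 CPM, and Cope shows all 3 KO libraries above WT.

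The COPI coat is a complex of 7 subunits, of which the listed genes encode 1 each. Cope, the epsilon subunit, stood at 45.2, 55.5 and 52.1 CPM in WT 1 to 3 and at 89.8, 72.6 and 63.8 CPM in KO 1 to 3. All KO libraries lay above all WT libraries, with a log2 fold change of 0.57 ± 0.22, the highest of the 40 (adjusted p = 0.172 by edgeR). Copb1, a beta subunit, was at 0.22 ± 0.15 with overlapping groups. The other 5 had negative values. Copa, the alpha subunit, stood at 269, 256 and 307 CPM in WT and 229, 241 and 193 CPM in KO (-0.32 ± 0.14), without overlap. Copb2 did not overlap either, at 192, 173 and 181 CPM in WT and 155, 139 and 166 CPM in KO (-0.25 ± 0.15).

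Arcn1, the delta subunit, had the lowest COPI value, -0.43 ± 0.28, from 29.96, 66.9 and 43.2 CPM in WT 1 to 3 and 30.3, 35.8 and 38.0 CPM in KO 1 to 3. WT library 1 lay below every KO library, and without WT library 2 the value was -0.08. Copg1 was at -0.32 ± 0.23 and Copz1 at -0.07 ± 0.17, both overlapping. Inside each library, the log2 ratio of Cope counts to the summed counts of the 6 other COPI subunits was -4.20, -4.06 and -4.09 in WT libraries 1 to 3 and -3.18, -3.44 and -3.54 in KO libraries 1 to 3. The KO libraries lay higher by 0.73 on average (-4.12 ± 0.08 in WT and -3.39 ± 0.18 in KO, SD, n = 3).

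KDEL receptors catch ER proteins in the Golgi and return them in COPI vesicles. Kdelr1 stood at 748, 729 and 679 CPM in WT 1 to 3 and at 628, 714 and 636 CPM in KO 1 to 3 (log2 fold change -0.12 ± 0.11). Kdelr2 stood at 234, 265 and 216 CPM in WT and 204, 218 and 169 CPM in KO (-0.28 ± 0.14). In both genes KO library 2 lay among the WT libraries. Kdelr3 stood at 94.6, 93.6 and 89.4 CPM in WT and 76.0, 77.7 and 54.5 CPM in KO (-0.41 ± 0.20). The groups did not overlap, and without KO library 3 the value was -0.27. Kdelr3 was the member whose span met a gene with more than 10% of its own counts, Ddx17, which had 4915 counts against 999 and a log2 fold change of -0.37 ± 0.12. The sources used here do not say whether strand was used in counting, so the reads of the pair cannot be told apart. The log2 ratio of Kdelr3 to Kdelr1 counts was -2.98, -2.96 and -2.92 in WT libraries 1 to 3 and -3.05, -3.20 and -3.55 in KO libraries 1 to 3. The mean difference was -0.31, and -0.17 without KO library 3.

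The p24 proteins are short membrane proteins that cycle between the ER and the Golgi as cargo receptors. Tmed9 stood at 359, 373 and 391 CPM in WT 1 to 3 and at 273, 345 and 230 CPM in KO 1 to 3. KO library 2 came close to the WT libraries and the other KO libraries lay well below, with a log2 fold change of -0.40 ± 0.14. Without KO library 2 Tmed9 passed edgeR at an adjusted p of 0.0150. Without KO library 3 its adjusted p was 0.512. Tmed2 stood at 109, 105 and 88.9 CPM in WT and 77.0, 91.0 and 94.1 CPM in KO, overlapping at -0.21 ± 0.18. Tmed10 was at -0.24 ± 0.14, and overlapped too. Summed over the 3 genes, the p24 level was 699, 759 and 736 CPM in WT and 565, 633 and 564 CPM in KO.

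Both listed cargo receptors bind soluble cargo in the ER. Lman1, also called ERGIC-53, carries glycoproteins such as coagulation factors, and stood at 309, 262 and 294 CPM in WT 1 to 3 and at 230, 250 and 267 CPM in KO 1 to 3 (-0.21 ± 0.13). KO library 3 lay above WT library 2, so the groups overlapped. Surf4, a receptor of lipoproteins in mouse liver, stood at 451, 387 and 454 CPM in WT and 494, 482 and 481 CPM in KO. All KO libraries lay above all WT libraries, at 0.18 ± 0.12, and at 0.10 without WT library 2. The log2 ratio of Surf4 to Lman1 counts was 0.54, 0.56 and 0.63 in WT libraries 1 to 3 and 1.10, 0.95 and 0.85 in KO libraries 1 to 3, so it was higher in every KO library by 0.39 on average.

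**Figure D4:**
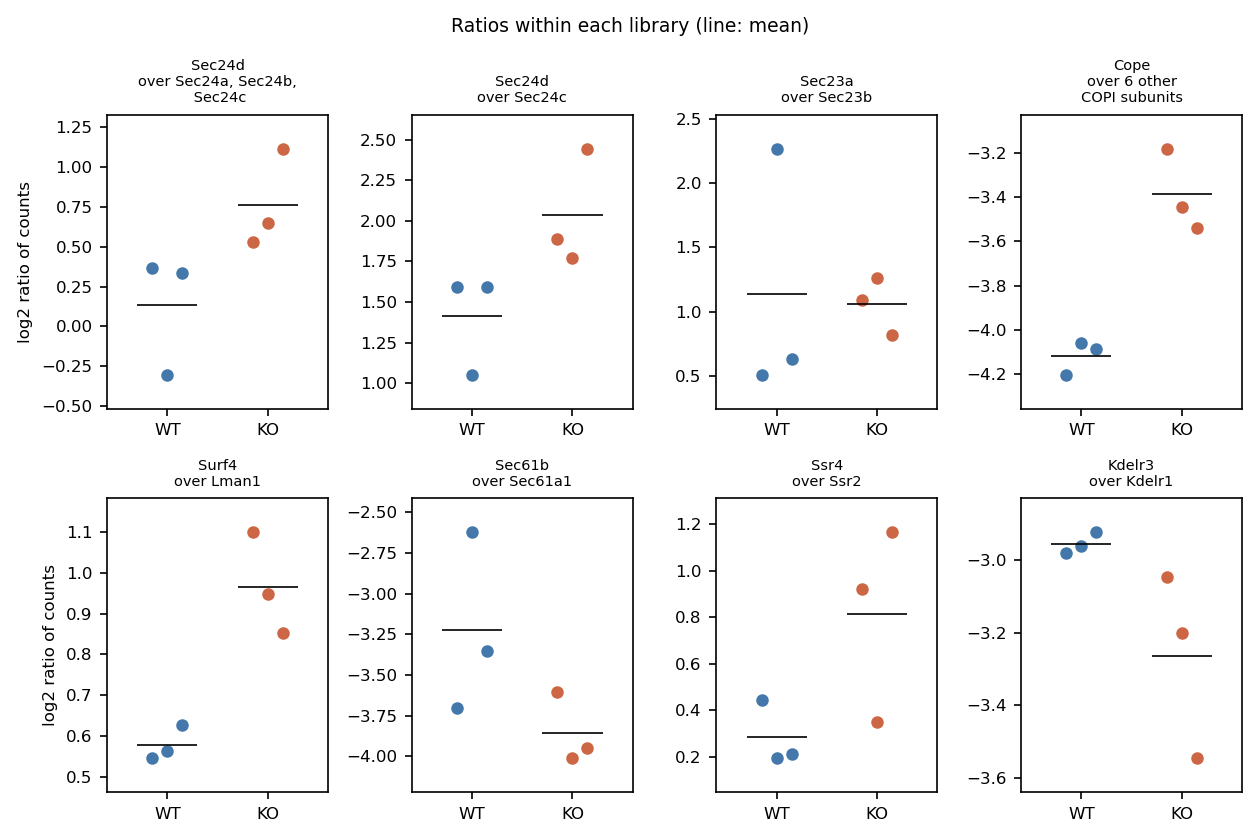
Log2 ratio of counts inside each library (vertical axes, which do not start at 0) for all 8 ratios computed between members, with points for libraries 1 to 3 and a line at the mean. Both Sec24d ratios, Cope and Surf4 over Lman1 lie higher in every KO library, by 0.63, 0.62, 0.73 and 0.39 on average, and Kdelr3 over Kdelr1 lies lower, by -0.31. The groups overlap for Sec23a over Sec23b, Sec61b over Sec61a1 and Ssr4 over Ssr2.

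Summed over the 40 genes, the level was 7738, 7949 and 7901 CPM in WT 1 to 3 and 6986, 7512 and 6935 CPM in KO 1 to 3. Every KO library lay below every WT library, and the KO mean was 90.9% of the WT mean (SD, n = 3: WT 7863 ± 111 CPM, KO 7144 ± 319 CPM). The unscaled share of all counts is nearly the same quantity, because the TMM factors lay between 0.974 and 1.014, and is no separate check. That share was 0.772%, 0.791% and 0.795% in WT and 0.676%, 0.749% and 0.688% in KO. By role, the KO mean was lowest against WT for the p24 family, at 80.3%. It was 86.8% for the SNARE role (Sec22a and Sec22b), 88.2% for the KDEL receptors, 89.5% for signal peptidase and 90.1% for the COPII coat. It was 90.6% for the translocon, 90.9% for the TRAP complex, 92.1% for the COPI coat, 94.9% for the COPII organisers and 102% for the cargo receptors. The SNARE value rested on KO library 1, at 64.2% of the WT mean, with KO libraries 2 and 3 at 96.4% and 99.9%. The p24 family and the COPII coat were the roles whose summed levels did not overlap between groups, and for the COPII coat the gap was from 1283 CPM in WT library 1 to 1279 CPM in KO library 2. A sum is set mostly by its genes of highest count, and it carries no test here.

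**Figure D5:**
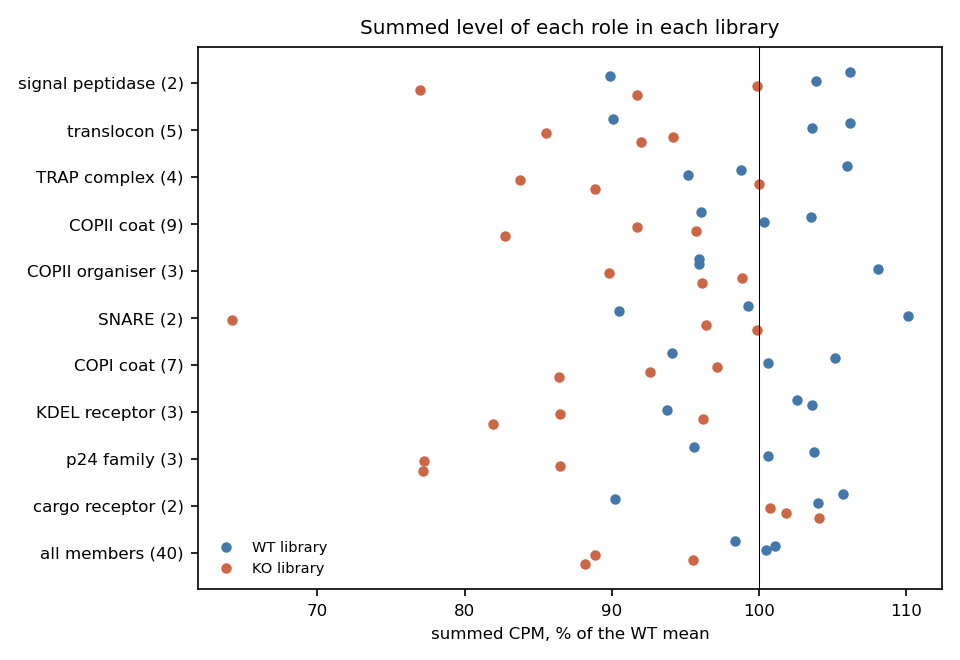
Summed level of each role in each library as a percentage of the WT mean of that role (horizontal axis, which does not start at 0), with the number of genes in parentheses. All 40 together lie between 88.2% and 95.5% in KO libraries, and the cargo receptors lie at or above their WT mean in all KO libraries.

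Other genes of the route were taken from a list of 94 that holds none of the 40, of which 87 were tested. Of these 1 (1.15%) passed over all genes, lower in KO, against 3.59% of all tested genes, and 39 of 87 had a negative log2 fold change, with a median of 0.02. Rab1a, a GTPase that tethers COPII vesicles on the way to the Golgi, fell from 392 ± 36.9 to 269 ± 24.6 CPM (SD, n = 3). Its libraries stood at 392, 429 and 355 CPM in WT and 252, 298 and 258 CPM in KO, without overlap. The log2 fold change was -0.54 ± 0.13, with an adjusted p of 0.0116 by edgeR. The Rab1a call was lost without WT library 1 (adjusted p = 0.0628), WT library 2 (0.0811) or KO library 3 (0.113). In those fits its log2 fold change was -0.55, -0.48 and -0.51. Calls over all genes were 203, 226 and 158 there, against 357 with every library. Its close relative Rab1b was at -0.40 ± 0.28 and did not pass.

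The medians of the groups on that list lay near 0. Median log2 fold changes were 0.01 for the 7 tested genes of the signal recognition particle and its receptor, 0.03 for 12 other translocon and signal peptidase genes, and 0.02 for 10 genes of the oligosaccharyltransferase, which adds N-glycans. They were 0.05 for 10 genes listed under other COPII genes and -0.01 for 10 other COPI and ARF genes. For 19 other p24 and cargo receptor genes the median was -0.06, and for 19 tethers and SNAREs 0.10. The 10 listed under COPII ran from -0.47 to 0.50. They included Creb3l1 (0.17) and Creb3l2 (0.07), the relatives of ATF6 described above, so their median is not that of COPII genes alone. At an unadjusted p under 0.05, 4 of the 87 (4.60%) were lower, against 7.83% of all tested genes, and 2 (2.30%) higher, against 7.62%.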

How the data were processed

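Per the labels' protocols, RNA of sorted preadipocytes was selected by poly(A). The table deposited by the authors gives raw read counts for each gene symbol, without normalization. The submitters' processing notes name HTSeq 0.9.1, HISAT2 2.2.1, DESeq2 1.36.0, Trim Galore 0.6.6 and Bismark 0.23.0, without a role for each. The 2 WGBS pools (14 weeks of diet) were not used here, because the build of their regions is not stated.

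Counts of 3 WT and 3 KO libraries were fitted with edgeR 4.0.16 (limma 3.58.1, R 4.3.3). The filter filterByExpr (minimum count 10, total 15) kept 9943 genes, which held 99.2% or more of every library. TMM factors, the quasi-likelihood test and Benjamini-Hochberg adjustment over all genes at 0.05 followed. Standard errors were derived from the F statistic, and intervals from them. The code was tested on simulated data. Replicate libraries differed by a chi-square of 4.05 to 7.13 per degree of freedom, so none was merged.

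The members and lists were chosen with earlier results of these data known. Per-library values are given for the highest and lowest member of each role and for the Sec11, Sec22, Sec23, Sec24 and Kdelr families; other genes with such values were added after these were seen. Levels are not compared between genes, since no transcript lengths were used. The 10 motifs were chosen with the fold changes known. Alternatives were upper quartile and RLE factors, limma-voom, DESeq2 1.42.0, no filter, a replicate block and leaving out each library.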

Additional observations from a re-analysis of the deposited data

How the results depend on the processing

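Over all genes the number of calls was 357, and between 335 and 501 under the 6 alternatives of test, scaling, filter and block. It ranged from 158 (KO library 3 left out) to 370 when 1 library was left out, with 203 for WT library 1 and 226 for WT library 2. Among the 40 secretory genes the count of 0 became 1 with the replicate block (Tmed9, adjusted p = 0.0385) and 1 without KO library 2, and the leave-one-out range was 0 to 1. Of the other genes of the route 1 was called, 2 with the replicate block (Arf4 and Rab1a), and 0 to 2 when 1 library was left out. Same-numbered WT and KO libraries showed no shared deviation. The correlation of deviations from the group mean lay between -0.00024 and 0.020, and between -0.058 and 0.039 for libraries of different number. With 3 libraries in each group, such values cannot settle whether the numbers pair the libraries. The median of the 40 genes, -0.23, lay between -0.24 and -0.23 under the 6 alternatives, and between -0.22 and -0.14 in the leave-one-out fits. No alternative moved the median of all genes by more than 0.1, but the scaling itself holds that median near 0, so this is no check. The number of members with a negative value lay between 29 and 34. At most 4 members changed sign in any fit. No member's log2 fold change moved by 1 SD between replicates or more. Leaving out 1 of 3 libraries can hardly move a group mean that far, so stability is not read from it. By the other measure given above, leaving out 1 library changed the sign or moved the value by over 1.5 times for 31 members. Leaving out each library was applied to the 8 ratios between members after the data had been seen, and the Sec23a to Sec23b difference ranged from -0.39 to 0.49. Depth limits Sec22a most, with 17 counts in KO library 1.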
